A study of Mus musculus with 10 samples.

Results

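The mitochondrial carrier family Slc25 was examined in brown adipose tissue, a fat depot that burns fuel for heat, through the 44 genes whose symbol in the platform annotation is Slc25a followed by a number, out of 18193 genes measured. Total RNA was read on 10 Affymetrix expression arrays, each taken as 1 mouse, on which each transcript is detected by sets of short probes. The groups were 5 wild type mice (WT) and 5 mice whose label says Sirt3 knockout (KO); Sirt3 makes an enzyme that removes acetyl groups from mitochondrial proteins. All were untreated littermates, about 1 year old, on a 129 background. The labels give neither the deleted part of Sirt3 nor the sex of the animals. Values are log2 signals as the submitters deposited them, so a difference of 1 is a doubling of signal.

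Carriers of this family sit in the inner mitochondrial membrane and exchange nucleotides, phosphate, acids, amino acids and cofactors between the cytosol and the matrix. The uncoupling proteins, which let protons leak back into the matrix and so turn fuel into heat in brown fat, belong to the same protein family under the Ucp symbols and are not among the 44 genes. Brown adipocytes are packed with mitochondria and depend on carriers for acylcarnitine and phosphate entry and for the exchange of ADP and ATP.

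Sirt3 itself was not lower in the arrays labelled KO, at 10.32 ± 0.07 (SD, n = 5) against 10.13 ± 0.10 (SD, n = 5) in WT, and the labels do not say where its 1 probe set lies relative to the deletion. Directions therefore refer to the labels. Array medians lay between 5.58 and 5.61. The 10 markers of brown adipocytes gave array means between 10.49 and 11.06, with Ucp1 at 14.18 ± 0.09 (SD, n = 5) in WT. The 18 markers of skeletal muscle gave array means from 7.52 to 11.56 in WT and from 5.38 to 10.88 in KO, lowest in KO 3, KO 1 and WT 5. In bulk tissue, fewer cells of a type and less RNA per cell cannot be told apart.

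The family covered nearly the whole range of signal on the array. Of the 44 carriers, 6 had a WT mean above 12, another 6 lay between 10 and 12, 13 between 8 and 10, 10 between 6 and 8, and 9 below 6. The median WT mean was 8.27, against 6.49 over all genes. Signals of different probe sets depend on how well each set binds its transcript, so this order is one of signals and does not rank the transcripts by abundance. Between neighbours in the order, the 5 WT values overlapped in all but 8 of 43 cases. The gaps lay after Slc25a39, Slc25a1, Slc25a46, Slc25a48, Slc25a47, Slc25a24, Slc25a27 and Slc25a18, so the other neighbours were not separated beyond their spread.

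**Figure D1:**
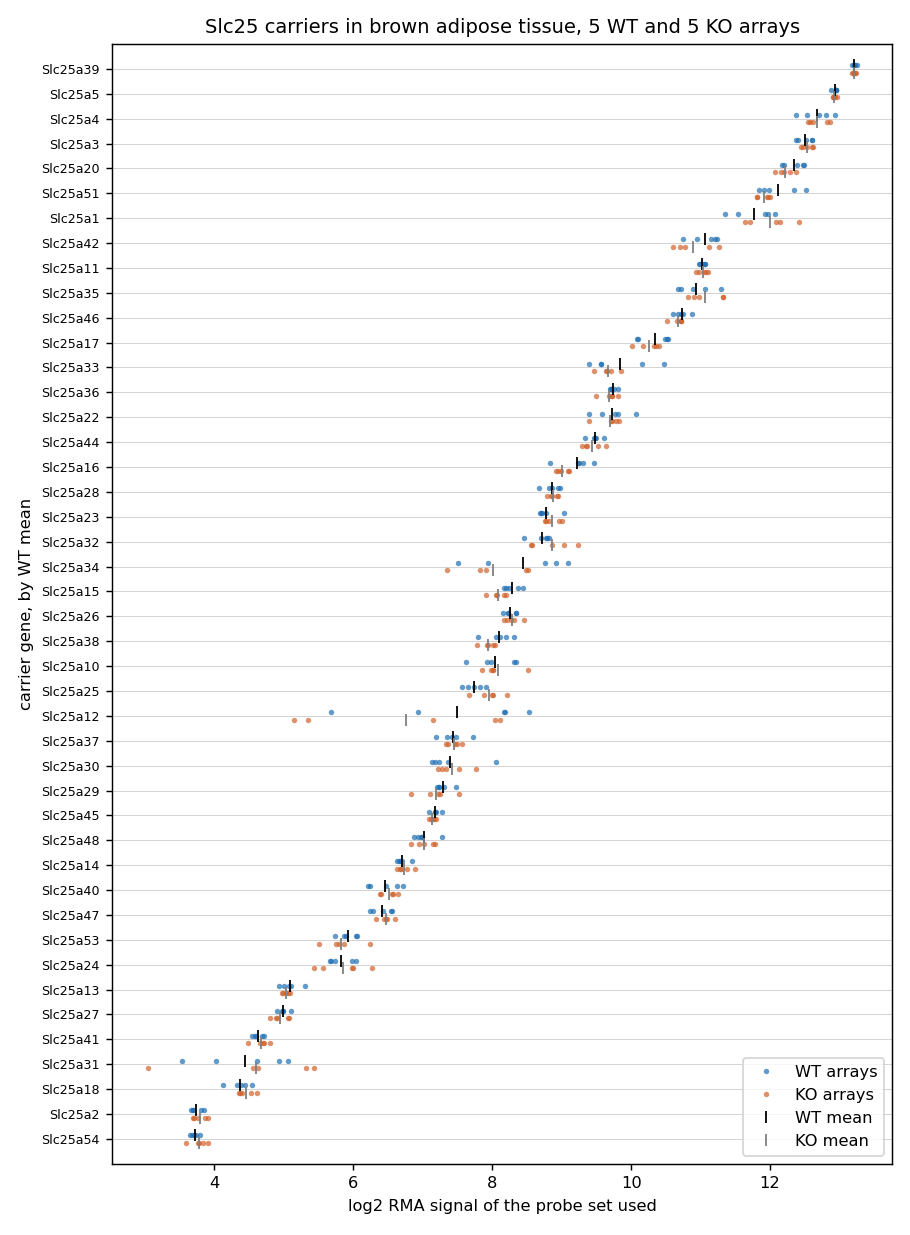
Log2 signal (x axis) of the probe set used for each of the 44 Slc25 carriers (y axis, ordered by WT mean) in 5 WT and 5 KO arrays, with a tick at each group mean. WT means run from 13.21 for Slc25a39 to 3.72 for Slc25a54, and Slc25a12, Slc25a31 and Slc25a34 show the widest scatter between arrays.

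The carriers with the highest WT signal served glutathione, adenine nucleotides, phosphate, acylcarnitine and NAD. Slc25a39, which brings glutathione into the matrix, gave 13.23, 13.25, 13.18, 13.21 and 13.21 in WT 1 to WT 5, and 13.24, 13.21, 13.22, 13.19 and 13.17 in KO 1 to KO 5, the order used for every carrier below. All 10 values lay within 0.078 of each other, and the groups overlapped. The KO minus WT difference was -0.0052 ± 0.042 (limma estimate ± SE, 95% confidence interval -0.10 to 0.09, adjusted p = 0.990). The set used carries the suffix _x_at, of sets that can match other sequences. A dimmer set with no such suffix, with a WT mean of 7.94, gave -0.20 over a range of 0.64. Its other sets gave 0.0087, -0.04 and 0.020.

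Slc25a5, the adenine nucleotide carrier that most tissues express, gave 12.88, 12.96, 12.95, 12.95 and 12.95 in WT and 12.91, 12.92, 12.94, 12.96 and 12.91 in KO. The values were as tight as those of Slc25a39, with a range of 0.083. Its difference was -0.0097 ± 0.042 (95% confidence interval -0.10 to 0.08). RefSeq lists a pseudogene of it, Slc25a5-ps, and 6 of its 8 probe sets carry the suffix _x_at of sets that can match other sequences, so its signal may hold signal from close copies.

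Slc25a3, which imports the phosphate needed for ATP synthesis, gave 12.51, 12.60, 12.61, 12.37 and 12.40 in WT and 12.61, 12.53, 12.45, 12.61 and 12.47 in KO. WT 4 and WT 5 were the lowest arrays and the groups overlapped. The difference was 0.04 ± 0.064 (95% confidence interval -0.10 to 0.18). A second, dim probe set with a WT mean of 5.10 gave -0.21, and the sign of the mean of both sets was negative.

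Slc25a20, the carnitine/acylcarnitine carrier that admits long-chain fatty acids for oxidation, gave 12.20, 12.18, 12.39, 12.48 and 12.48 in WT and 12.16, 12.28, 12.20, 12.08 and 12.38 in KO. WT 3, WT 4 and WT 5 were highest, and KO 5 reached nearly the same level. The difference was -0.12 ± 0.082 (95% confidence interval -0.30 to 0.05, adjusted p = 0.914), and its second probe set gave -0.17. Without WT 4 and WT 5 the difference was -0.034.

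Slc25a51, the NAD carrier, gave 11.92, 11.84, 11.98, 12.52 and 12.35 in WT and 12.00, 11.97, 11.81, 11.95 and 11.81 in KO. WT 4 and WT 5 stood above all other arrays, and the other 3 WT values lay inside the KO range. The difference was -0.21 ± 0.12 (adjusted p = 0.914) over all arrays and -0.004 without WT 4 and WT 5. WT 4 and WT 5 were also the highest arrays in its other 2 probe sets, which differed by -0.16 and -0.17.

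No carrier passed the test between arrays labelled KO and WT. By limma, 0 of 44 members had an adjusted p under 0.05, where the share over all 18193 genes was 0.0%, and the smallest adjusted p among members was 0.914. Without adjustment 2 members had p under 0.05, or 4.55% against 4.68% of all genes. Of these 1 was higher and 1 lower in KO, where 1.85% and 2.83% of all genes were. Groups overlapped in all 44 members, and did not overlap in 0.627% of all genes. Members were higher in KO on average in 23 cases and lower in 21. The share that was higher, 52.3%, stood beside 43.9% of all genes. The median difference was 0.0074 log2 units over members and -0.013 over all genes, the first being below 0 under 17 of 22 other settings of the analysis. The median size of the difference, sign ignored, was 0.060 over members and 0.059 over all genes. In members the 95% confidence interval had a median half-width of 0.20, so smaller differences were not resolved in most of them.

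**Figure D2:**
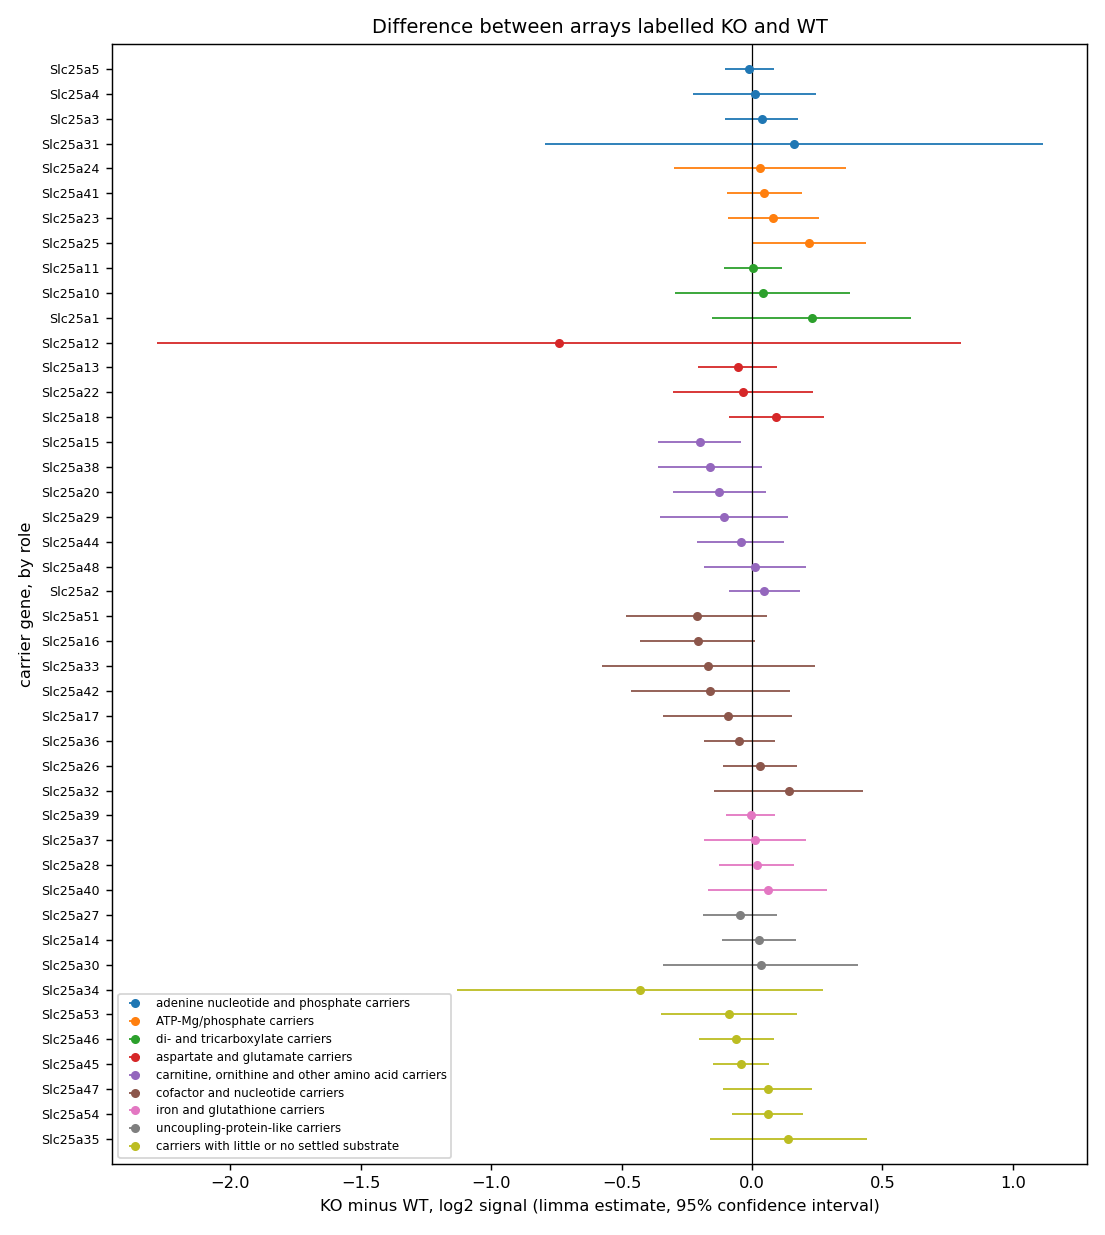
KO minus WT difference in log2 signal (x axis) for each of the 44 carriers (y axis, grouped and coloured by role), with points at the limma estimate and bars for its unadjusted 95% confidence interval. Intervals of Slc25a15 (-0.36 to -0.04) and Slc25a25 (0.0029 to 0.44) leave out 0 before adjustment, and the widest interval is that of Slc25a12 (-2.28 to 0.80).

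The member nearest to the threshold was Slc25a15, the ornithine carrier of the urea cycle. It gave 8.24, 8.18, 8.20, 8.44 and 8.37 in WT and 8.20, 8.17, 8.07, 8.05 and 7.92 in KO. All 5 KO values lay below the WT mean, and KO 1 overlapped the lowest WT arrays. The difference was -0.20 ± 0.072 (unadjusted limma p = 0.017, adjusted p = 0.914), while exact permutation, two-sided, of n = 5 against 5 values returned p = 0.032 before adjustment. Its second probe set gave -0.18. Without WT 4 and WT 5 the difference was -0.122.

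Slc25a25, a calcium-regulated carrier that exchanges ATP-Mg for phosphate, gave 7.65, 7.90, 7.82, 7.56 and 7.74 in WT and 8.01, 8.00, 7.67, 8.22 and 7.88 in KO. KO 3 and KO 5 lay within the WT range and KO 4 was the highest array. The difference was 0.22 ± 0.099 (limma adjusted p = 0.914), and exact two-sided permutation returned p = 0.087 before adjustment. Of its 2 dimmer probe sets, one gave 0.09 and the other 0.0018.

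Slc25a16, a carrier linked to coenzyme A, gave 9.23, 8.84, 9.31, 9.46 and 9.25 in WT and 9.10, 8.94, 9.09, 8.91 and 8.99 in KO. WT 2 was the lowest array of all, while the other 4 WT values lay above every KO value. The difference was -0.21 ± 0.10 (adjusted p = 0.914) and -0.303 without WT 2 (adjusted p = 0.569). It was -0.148 without WT 4 and -0.117 without WT 4 and WT 5.

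Slc25a38, which brings glycine in for heme synthesis, gave 7.80, 8.06, 8.12, 8.20 and 8.32 in WT and 7.94, 7.92, 8.04, 7.79 and 8.01 in KO. The groups overlapped, with WT 1 near the lowest KO array, and the difference was -0.16 ± 0.091 (adjusted p = 0.914). It was -0.234 without WT 1, -0.105 without WT 5 and -0.053 without WT 4 and WT 5. Of the 8 markers of red blood cell precursors, 4 were measured, and their array means ranged only from 5.54 to 5.78. The count of 2 members with an unadjusted p under 0.05 became 5 when WT 2 was left out. It became 1 when any one of WT 3, WT 4, WT 5, KO 1, KO 2, KO 4 or KO 5 was left out, and 0 without WT 4 and WT 5 together.

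By role, the carriers showed no group in which a member passed the test over all genes. Of the 4 adenine nucleotide and phosphate carriers 3 were higher in KO (median 0.024), and of the 4 ATP-Mg/phosphate carriers all 4 were (median 0.06). All 3 measured di- and tricarboxylate carriers were higher, with a median of 0.04. Slc25a1, which exports citrate for fatty acid synthesis, differed by 0.23 ± 0.17, and Slc25a11, the oxoglutarate carrier of the malate-aspartate shuttle, by 0.0046 ± 0.050. Of the 7 carriers in the carnitine, ornithine and amino acid group 5 were lower (median -0.11), and of the 8 measured cofactor and nucleotide carriers 6 were lower (median -0.13). In that last group Slc25a42, the coenzyme A carrier, differed by -0.16 ± 0.14 and Slc25a32, the folate and FAD carrier, by 0.14 ± 0.13. The 4 iron and glutathione carriers had a median of 0.015, with the iron carriers Slc25a28 and Slc25a37, also called mitoferrins, at 0.018 ± 0.066 and 0.011 ± 0.089. The 3 carriers related to uncoupling proteins had a median of 0.026, and the 7 measured carriers with little or no settled substrate one of -0.04.

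No pair of related carriers passed the test of a shift against each other. Within each array the log2 signal of one carrier was subtracted from that of its relative, and the result was compared between groups for 8 pairs. Slc25a4 minus Slc25a5 was -0.26 ± 0.23 (SD, n = 5) in WT and -0.24 ± 0.13 (SD, n = 5) in KO. Slc25a28 minus Slc25a37 was 1.42 ± 0.17 and 1.43 ± 0.11, in the same order. By exact two-sided permutation with Benjamini-Hochberg adjustment over the 8 pairs, 0 passed, and the smallest p before adjustment was 0.31, for Slc25a24 minus Slc25a25 (KO minus WT -0.19). The pair with the largest difference, Slc25a12 minus Slc25a13 at -0.69, had standard deviations of 1.11 in WT and 1.42 in KO.

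The widest scatter in the family was that of Slc25a12, an aspartate/glutamate carrier of the malate-aspartate shuttle known from muscle and brain. It gave 8.17, 8.53, 8.19, 6.94 and 5.67 in WT and 5.35, 8.11, 5.15, 8.04 and 7.14 in KO. Its range of 3.38 was wider than that of 99.6% of all genes, while the median range was 0.51 for members and 0.40 for all genes. The arrays high and low in Slc25a12 came from both groups. The mean of the 18 skeletal muscle markers was 10.97, 11.56, 10.91, 9.37 and 7.52 in WT and 5.64, 10.88, 5.38, 10.88 and 9.86 in KO. The 3 arrays lowest in those markers, KO 3, KO 1 and WT 5, were also the 3 lowest in Slc25a12, and WT 2 was highest in both. The KO minus WT difference of Slc25a12 was -0.74 ± 0.70 (adjusted p = 0.918). It was 0.127 with the mean of the muscle markers as a covariate, -0.192 without WT 5, KO 1 and KO 3, and -1.537 without WT 4 and WT 5. Its other 2 probe sets were dim, with WT means of 4.97 and 4.56, and differed by 0.025 and 0.12.

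Slc25a4, the adenine nucleotide carrier of heart and skeletal muscle, varied much less than Slc25a12. It gave 12.70, 12.94, 12.81, 12.54 and 12.38 in WT and 12.54, 12.82, 12.58, 12.86 and 12.62 in KO. In the probe set used, the lowest 4 arrays were WT 5, KO 1, WT 4 and KO 3, and these were also the lowest 4 in muscle markers. In its other bright probe sets KO 5 took the place of KO 3 among the lowest 4. There KO 5 was at 12.51 and 12.15 and KO 3 at 12.52 and 12.26. The difference in the set used was 0.01 ± 0.11, 0.112 with the muscle covariate, and -0.133 without WT 4 and WT 5. Slc25a13, the other aspartate/glutamate carrier, had a WT mean of 5.08 ± 0.14 (SD, n = 5), below the array medians, and a range of 0.38.

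**Figure D3:**
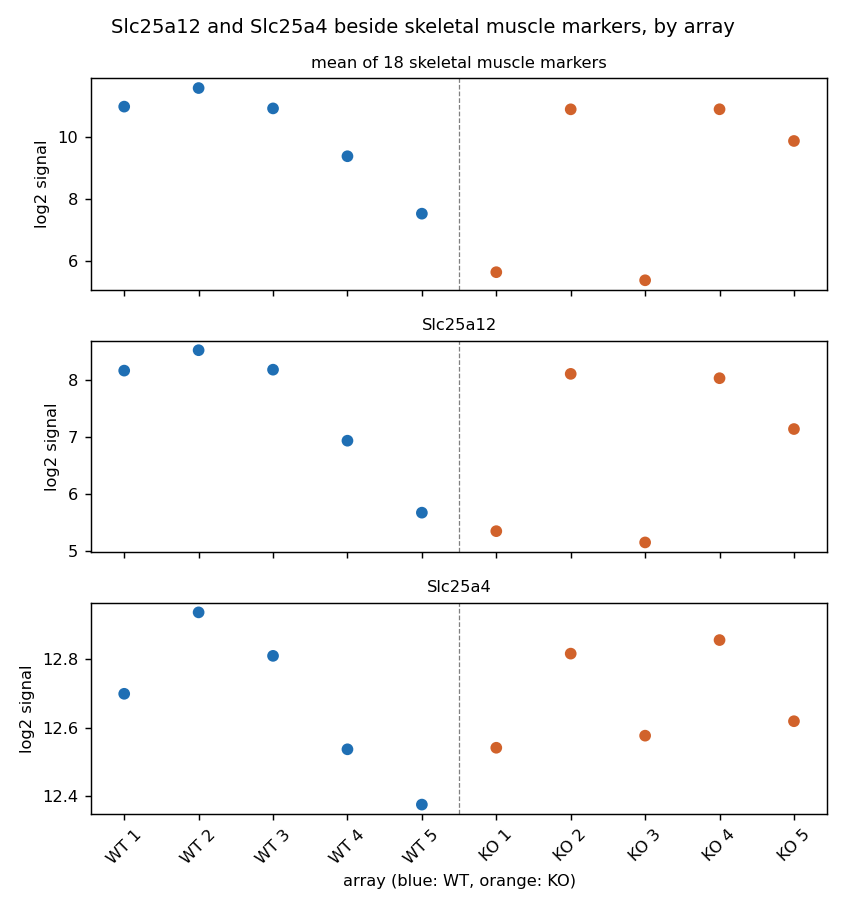
Log2 signal (y axes, each with its own scale) by array (x axis, 5 WT in blue and 5 KO in orange) for the mean of 18 skeletal muscle markers, Slc25a12 and Slc25a4. KO 3, KO 1 and WT 5 are the lowest arrays for the markers (5.38, 5.64 and 7.52) and for Slc25a12 (5.15, 5.35 and 5.67).

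Slc25a31, an adenine nucleotide carrier known from germ cells, was the second most variable member despite its low signal. It gave 5.06, 3.54, 4.92, 4.62 and 4.03 in WT and 5.43, 3.04, 5.32, 4.55 and 4.63 in KO. All 10 values lay below the array medians, where RMA gives no detection call, so whether the transcript was present is unknown. KO 2 and WT 2 were lowest and KO 1 and KO 3 highest. The difference was 0.16 ± 0.44, and its sign turned without WT 2, KO 1 or KO 3. The 5 germ cell markers gave array means between 4.39 and 4.55. The dimmest members were Slc25a18 (WT mean 4.36), Slc25a2 (3.74) and Slc25a54 (3.72).

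Slc25a33, a pyrimidine nucleotide carrier, gave 9.56, 9.40, 9.57, 10.48 and 10.16 in WT and 9.71, 9.64, 9.85, 9.47 and 9.65 in KO. As with Slc25a51, WT 4 and WT 5 stood above all other arrays. The difference was -0.17 ± 0.19, and it turned to 0.155 without these 2 arrays.

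Slc25a34, a carrier with no settled substrate, was the third most variable member. It gave 7.93, 7.51, 8.92, 9.09 and 8.76 in WT and 7.82, 8.48, 7.90, 7.35 and 8.51 in KO. The 10 arrays fell on 2 sides of a gap between 7.93 and 8.48. WT 1, WT 2, KO 1, KO 3 and KO 4 lay below it, and WT 3, WT 4, WT 5, KO 2 and KO 5 above it. Both sides held both groups, and the difference was -0.43 ± 0.32 (adjusted p = 0.914), or -0.106 without WT 4 and WT 5. It was -0.662 without WT 2 (adjusted p = 0.625).

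Slc25a20, Slc25a34 and Slc25a42 were high in the same 5 arrays, which came from both groups, and 1 of their 3 pairs passed adjustment as a correlation. Slc25a42 gave 10.94, 10.74, 11.21, 11.15 and 11.23 in WT and 10.77, 11.13, 10.70, 10.61 and 11.27 in KO. Its difference was -0.16, while its second, dimmer probe set, with a WT mean of 6.58, gave 0.13. In the probe sets used, the 5 arrays above the gap in Slc25a34 were the 5 highest in Slc25a42 and in Slc25a20. The same held in the second set of Slc25a20 but not in that of Slc25a42. There WT 3 (6.56) lay below WT 1 (6.61) and KO 1 (6.58). Over the 10 arrays, Slc25a20 and Slc25a34 had a Pearson r of 0.950 (permutation p = 0.0001) and a Spearman rho of 0.964 (permutation p = 3e-05). Adjusted over all 946 pairs of members the values were 0.041 and 0.0284, and r was 0.946 without the 2 arrays farthest from the median of Slc25a20. Slc25a34 and Slc25a42 had r = 0.911 and rho = 0.842 (permutation p = 0.001 and 0.0036, adjusted 0.088 and 0.243), with r = 0.914 when the 2 farthest arrays were left out. Slc25a20 and Slc25a42 had r = 0.901 and rho = 0.806 (permutation p = 0.00099 and 0.0071, adjusted 0.088 and 0.334). Each side of the gap held 5 arrays, too few for a correlation within it.

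In all, 3 of the 946 pairs had an adjusted permutation p of r under 0.05, and 1 had one of rho. The other 2 were Slc25a34 with Slc25a46 and Slc25a17 with Slc25a46, at r = 0.864 and 0.839. Their adjusted permutation p of rho was 0.085 and 0.243, and r was 0.805 and 0.684 without the 2 farthest arrays. Both rest on 1 probe set of Slc25a46, with a WT mean of 10.73. Its second set, at 10.64, was not used for correlations. In that set WT 5 (10.59), high in Slc25a34, lay below WT 1 (10.63) and WT 2 (10.65), low in Slc25a34. Slc25a46 acts at the outer membrane and Slc25a17 is a carrier of peroxisomes. A Pearson r above 0.9 occurred in 5 of the 946 member pairs, or 0.529%, and in 0.0678% of all gene pairs. The pairs among Slc25a20, Slc25a34 and Slc25a42 are all among these 5, which are thus not independent. Members also had a higher median WT signal and a wider median range than all genes.

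The mean of the macrophage markers followed the same split. The mean of the 8 markers was 7.59 or lower in the 5 arrays low in Slc25a34 and 7.73 or higher in the other 5, over a range of 7.53 to 8.03 in WT and 7.41 to 7.86 in KO. Of the 8 markers, 3 had every low-side array below every high-side array (Lyz2, C1qa and C1qb), and the others overlapped between the sides. The leptin gene Lep, a marker of white adipocytes, split the opposite way, at 9.46 to 10.23 in the 5 arrays low in Slc25a34 and at 5.75 to 8.82 in the other 5. The mean of all 3 white adipocyte markers ran from 7.86 to 8.00 and from 6.99 to 7.87, in the same order, so the sides met. Lipe, 1 of the 5 measured markers of adipocytes of any kind, also split the opposite way, at 13.04 to 13.22 against 12.77 to 13.01. The other markers of that list, and the mean of all 5, overlapped between the sides. Means of the 6 endothelial markers ran from 8.56 to 8.66 on the low side and from 8.12 to 8.56 on the high side, so the sides met. WT 3 and WT 5 were the lowest, at 8.12 and 8.30, and none of the 6 markers split completely by itself. Means of the 10 brown adipocyte markers overlapped between the sides, through KO 1 and KO 5, and none of the 10 split completely by itself. Of their means, those of WT 1, WT 2, KO 3 and KO 4 lay between 10.49 and 10.62 and those of WT 3, WT 4, WT 5 and KO 2 between 10.70 and 11.06, while KO 1, on the low side, was at 10.80 and KO 5, on the high side, at 10.55. Among the partner genes described at the end, Cpt2, a carnitine acyltransferase, split the same way as Slc25a34 and Alas1, the first enzyme of heme synthesis, the opposite way. The share of all genes that split completely between these sides is not given here. Between the labels, 6 of the 8 macrophage markers were lower in KO and 2 higher. Cd163 (-0.73), Mrc1 (-0.25) and Adipoq, a marker of adipocytes of any kind (-0.14), were lower with an unadjusted limma p under 0.05. Esam, an endothelial marker (0.36), was higher with such a p. Each had an adjusted p of 0.914, and over all genes 2.83% were lower and 1.85% higher at that limit. The part of these genes and cell types in the result was not tested.

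**Figure D4:**
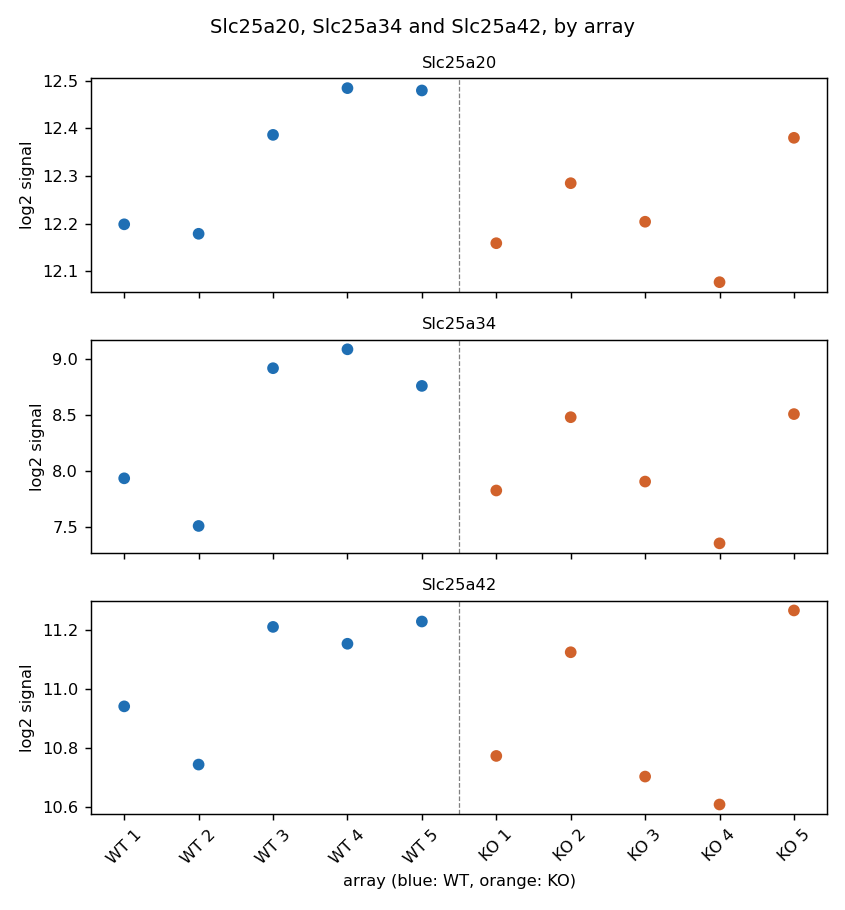
Log2 signal (y axes, each with its own scale) of Slc25a20, Slc25a34 and Slc25a42 by array (x axis, 5 WT in blue and 5 KO in orange). In all 3 genes WT 3, WT 4, WT 5, KO 2 and KO 5 are the 5 highest arrays, for example 8.48 or more against 7.93 or less in Slc25a34.

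The promoters of these 3 genes are shown because the same 5 arrays were highest in all 3. Each line gives the 250 bases before the RefSeq start, from the RefSeq promoter table of build GRCm38.p6, written 5′ to 3′ along the gene's strand. Capitals mark matches on either strand to AGGTCA, which is the half-site of many nuclear receptors, to CCAAT, which names the CCAAT box, and to GGGCGG, which is the GC box. The motifs do not overlap in these windows.
Slc25a20, chr9:108661886-108662135, plus strand: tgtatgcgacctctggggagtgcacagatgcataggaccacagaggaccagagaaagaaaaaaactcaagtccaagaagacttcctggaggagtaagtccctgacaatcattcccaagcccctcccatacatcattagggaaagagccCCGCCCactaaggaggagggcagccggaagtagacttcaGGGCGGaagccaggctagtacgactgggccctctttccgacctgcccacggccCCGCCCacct
Slc25a34, chr4:141623835-141624084, minus strand: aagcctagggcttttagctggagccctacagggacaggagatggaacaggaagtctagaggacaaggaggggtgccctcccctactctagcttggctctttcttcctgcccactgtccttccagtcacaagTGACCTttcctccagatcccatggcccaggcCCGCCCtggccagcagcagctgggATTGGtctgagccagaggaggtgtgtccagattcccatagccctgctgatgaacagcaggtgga
Slc25a42, chr8:70212282-70212531, minus strand: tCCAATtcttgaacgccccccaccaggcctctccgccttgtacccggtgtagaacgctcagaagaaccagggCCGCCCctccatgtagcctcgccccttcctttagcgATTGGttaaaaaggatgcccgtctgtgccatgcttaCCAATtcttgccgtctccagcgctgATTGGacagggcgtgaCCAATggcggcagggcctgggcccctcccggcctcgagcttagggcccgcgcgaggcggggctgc
Slc25a20 held 3 GC boxes and no match to the other motifs, Slc25a34 held 1 match to each of the 3 motifs, and Slc25a42 held 5 CCAAT boxes and 1 GC box. Over the 32851 promoters in the table, the same window held AGGTCA in 14.0%, CCAAT in 33.8% and GGGCGG in 32.7%. These are letter matches, and no motif was found in all 3 promoters other than the GC box.

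Other genes that work with the carriers gave small differences as well. Of the carrier family members under other symbols, 4 were measured, and all 4 were lower in KO on average with 0 past the test. Ucp1 differed by -0.08 ± 0.061, Ucp3 by -0.05 ± 0.11 and the outer membrane proteins Mtch1 and Mtch2 by -0.05 ± 0.079 and -0.018 ± 0.050. Ucp2 is not analysed here. Of 14 other mitochondrial channels and transporters, among them the pyruvate carrier subunit Mpc1 and the voltage-dependent channels, 7 were higher and 7 lower, with a median of -0.0090. Enzymes of the malate-aspartate shuttle (4 measured, median 0.013), carnitine acyltransferases (3 measured, median -0.04) and enzymes of citrate formation and use (4 measured, median 0.022) also had 0 members past the test. The 5 measured genes of iron-sulfur and heme synthesis had a median of 0.0089. The 5 genes of the TIM22 machinery, which inserts carriers into the inner membrane, had one of -0.03. None of the members of these lists had an unadjusted p under 0.05 in limma.

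Several probe sets read the same gene in 23 of the 44 members, and in 15 of those at least 1 set differed in sign from the set used. Among the carriers given by array above, these were Slc25a3, Slc25a4, Slc25a5, Slc25a12, Slc25a39 and Slc25a42. The probe sets of Slc25a15, Slc25a20, Slc25a25 and Slc25a51 kept 1 sign each.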

How the data were processed

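The deposited values are log2 signals per probe set, made by the authors with RMA, which corrects background, normalizes between arrays and summarises probes, per the submitters' processing notes. The version of RMA was not stated in the labels. RMA makes array distributions alike, which hides a change common to most transcripts, and it gives no detection call. Precision is limited by the number of arrays. The titles gave the groups, and 1 array was taken as 1 mouse.

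Of 45101 probe sets, 34945 had 1 gene in the platform annotation, and for each gene the brightest on average was kept, which left 18193 genes. KO minus WT differences came from limma 3.58.1 (lmFit, eBayes; R 4.3.3), with no covariates, two-sided p, Benjamini-Hochberg adjustment over all genes and calls under 0.05. Single values were compared by exact permutation over 252 splits, whose smallest p is 0.0079. Correlations used 100000 permutations.

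Values by array are given for the 6 members with the highest WT mean, the 6 with the smallest unadjusted p and the 4 with the widest range; Slc25a42 and Slc25a1 and the genes of the correlated pairs were named after their values were seen. The members, gene lists and alternatives were chosen with earlier results of these data known. Same-numbered arrays did not deviate together (correlations of deviations from -0.395 to 0.236), so the numbers were not taken as pairs. The fit was first tested on simulated data. Figures were drawn with matplotlib 3.10.9.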

Additional observations from a re-analysis of the deposited data

Results flagged for a closer look

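In 6 of 88 groups of 5 arrays, 1 array stood so far from the others that its gap to the nearest exceeded 0.71 of the group's range, a limit that chance passes in about 1 in 20 groups (4.4 of 88). Slc25a30, a carrier related to uncoupling proteins, was at 8.05 in WT 4 against 7.13 to 7.36 in the other WT arrays. Slc25a10, the dicarboxylate carrier, was at 8.51 in KO 2 against 7.86 to 8.02 in the other KO arrays. Slc25a23, an ATP-Mg/phosphate carrier, was at 9.03 in WT 1 against 8.69 to 8.78. Slc25a5 was at 12.88 in WT 1 against 12.95 to 12.96. In KO 4, Slc25a22, a glutamate carrier, was at 9.40 against 9.71 to 9.83, and Slc25a46 at 10.51 against 10.67 to 10.72.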

How the results depend on the processing

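Under all 22 alternatives 0 genes were called over all genes, 0 members were called, and 0 of the carrier pairs passed under the 14 settings in which they were recomputed. The median difference of members stayed within the spread between arrays but was below 0 under 17 of the 22: -0.0317 without WT 5, KO 1 and KO 3, -0.031 without probe sets whose names end in _s_at, _x_at or _a_at, -0.0092 without WT 4 and WT 5, -0.0085 with the muscle covariate and with array weights, -0.0052 without dim genes, -0.0042 with each gene's probe sets averaged, and -0.012 to -0.0003 over the 10 fits with 1 array left out. The count of members higher in KO was 14 without WT 5, KO 1 and KO 3, and 17 to 22 with 1 array left out. The count with an unadjusted p under 0.05 was 1 with median centring, without dim genes, with the mean of all probe sets, with the most variable probe set and with the replicate block, 5 with the muscle covariate, 0 without WT 4 and WT 5, and 1 to 5 with 1 array left out. The replicate block changed no call of a member. Signs of small differences turned: Slc25a39 was 0.009 after a further quantile normalization, 0.001 with array weights and -0.014 to 0.004 with 1 array left out. It was -0.198 both without the suffixed probe sets and with the most variable probe set. Slc25a5 was 0.006 after that normalization and 0.021 with the most variable probe set. Slc25a4 was -0.026 with array weights, -0.094 without those suffixed sets, -0.133 without WT 4 and WT 5 and -0.064 to 0.077 with 1 array left out. Slc25a3 was -0.084 with the mean of all probe sets, -0.205 both without such sets and with the most variable one, and -0.039 without WT 4 and WT 5. Slc25a12 was 0.127 and Slc25a31 -0.129 with the muscle covariate. Slc25a31 was -0.461 without WT 5, KO 1 and KO 3, and -0.063 to 0.55 with 1 array left out. Slc25a33 was 0.155 without WT 4 and WT 5. The cause was not tested. The other 7 of the 14 members examined kept their sign under the 22 alternatives.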

Other observations

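Slc25a1, the citrate carrier, gave 12.07, 11.93, 11.97, 11.35 and 11.53 in WT and 12.42, 12.09, 11.71, 12.14 and 11.63 in KO, a range of 1.07 that was wider than in 95.2% of genes. It ran with Slc25a3 over the 10 arrays (r = 0.870, permutation p = 0.0012; rho = 0.891, permutation p = 0.0011; adjusted over 946 pairs 0.088 and 0.141), and r was 0.798 without the 2 arrays farthest from the median of Slc25a1. Slc25a33 and Slc25a51 had r = 0.867 (permutation p = 0.0082, adjusted 0.290) and rho = 0.455 (permutation p = 0.19, adjusted 0.710). Without the 2 arrays farthest from the median of Slc25a33 r was -0.149, so that relation rests on those arrays.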
